A study of Mus musculus with 2 samples.

Results

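The genes described here encode proteins of the spliceosome and the heterogeneous nuclear ribonucleoproteins (hnRNPs), and the measurement is how many ChIP-seq reads of Msl1 and of Nsl1 lay at and downstream of their transcription start sites (TSSs). No read value enters the rule that picks them, although the gene family was chosen with earlier results of these data known: they are the autosomal protein-coding genes of the mm9 annotation whose symbol begins with Snrp, Sf3a, Sf3b, Srsf, Hnrnp, Hnrp or Prpf, without Snrpn. The rule found 62 of 21410 autosomal protein-coding genes, and 1 further matching gene, on chromosome X, was left out. By the known roles of their products they fall into 7 Sm core genes, 4 U1 and U2 protein genes, 8 SF3a and SF3b genes, 13 Prp genes, 11 SR protein genes and 19 hnRNP genes.

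The study compared where Msl1 and Nsl1 bind in mouse embryonic stem cells (mESCs). The cells carried the label E14, were wild type, of the 129P2/OlaHsd genetic background and at passage 26, and no treatment is given for either group. Each group is a single library, precipitated with the rabbit polyclonal antibody 3208 against Msl1 or 3130 against Nsl1 from formaldehyde-fixed chromatin sheared to short fragments. The Msl1 library was made with the NEXTFlex kit and holds reads of 50 bases, and the Nsl1 library was made with the NEBNext kit and holds reads of 36 bases, so antibody, kit and read length cannot be told apart. The files held 23888517 Msl1 reads and 26084098 Nsl1 reads, of which 19483142 and 24883001 remained when nuclear reads were counted once per position and strand. With 1 library per antibody there is no replicate error and no test between the antibodies. The 95% intervals given below are exact and cover counting error only, and ChIP reads do not allow the labelled cell type to be checked against its expressed markers.

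Msl1 and Nsl1 are the scaffolds of separate complexes, MSL and NSL, that share the histone acetyltransferase Mof, an enzyme known for acetylating lysine 16 of histone H4. The spliceosome removes introns from pre-mRNA. Its U1 and U2 particles recognise the 5′ splice site and the branch point, each small nuclear RNA is wrapped by a ring of Sm proteins, SF3a and SF3b hold U2 on the branch point, and Prp proteins carry the rearrangements that make the machine active. SR proteins and hnRNPs are not part of the catalytic machine: they coat the transcript and favour or repress the use of splice sites. Most of these genes are used in nearly every cell type.

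The promoters at both ends of the comparison between the libraries are shown first, because the results below return to them. Each line runs 5′ to 3′ on the gene's own strand from 100 bases before the annotated TSS, with 20 bases after it, in mm9. Capitals mark exact matches, on either strand, to any of the 8 motifs searched. Prpf31 (chr7:3581487-3581606, plus strand), Snrpc (chr17:27976819-27976938, plus strand) and Sf3a3 (chr4:124391920-124392039, plus strand) had the fewest Msl1 reads for their Nsl1 reads among the 62 genes.
Prpf31: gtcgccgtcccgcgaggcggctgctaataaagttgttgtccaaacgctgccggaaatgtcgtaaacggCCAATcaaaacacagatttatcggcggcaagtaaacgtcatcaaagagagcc
Snrpc: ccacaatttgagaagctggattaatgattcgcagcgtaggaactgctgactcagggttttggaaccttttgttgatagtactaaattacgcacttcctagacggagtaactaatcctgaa
Sf3a3: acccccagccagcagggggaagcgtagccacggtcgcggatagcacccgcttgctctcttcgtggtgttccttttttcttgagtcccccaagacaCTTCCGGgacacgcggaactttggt
Srsf3 (chr17:29169518-29169637, plus strand), Hnrnpd (chr5:100407938-100408057, minus strand) and Hnrnpa1 (chr15:103070845-103070964, plus strand) had the most, and Hnrpdl had the same log2 ratio as Hnrnpa1.
Srsf3: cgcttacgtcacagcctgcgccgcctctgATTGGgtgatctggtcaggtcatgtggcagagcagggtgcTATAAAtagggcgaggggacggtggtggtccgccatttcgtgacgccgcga
Hnrnpd: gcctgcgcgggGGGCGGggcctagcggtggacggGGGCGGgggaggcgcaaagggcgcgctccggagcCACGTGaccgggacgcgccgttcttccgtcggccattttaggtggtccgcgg
Hnrnpa1: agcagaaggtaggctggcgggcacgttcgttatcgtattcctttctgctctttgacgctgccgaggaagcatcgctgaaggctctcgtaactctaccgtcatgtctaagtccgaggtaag
In Prpf31 the capitals are a CCAAT box, in Sf3a3 the reverse complement of CCGGAAG, the core that ETS family factors bind. In Srsf3 they are a CCAAT box on the other strand and TATAAA, and in Hnrnpd GGGCGG, the GC box, at 2 places and CACGTG, an E-box. The stretches shown for Snrpc and Hnrnpa1 held none of the 8. The annotated first exon of Hnrnpa1 is 15 bases long and begins with ATG, so it holds no bases before a possible start codon. The annotated start of Hnrnpa1, on which the stretch shown, its C+G share and its TSS level rest, may be misplaced.

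Both factors were well above their surroundings at most of these genes. Reads within 500 bases of the TSS were divided by the local level, the density of the same library's reads on either flank between 5 kb and 50 kb away, and this ratio is called the TSS level. Msl1 had a median TSS level of 3.68 and ranged from 1.24 to 11.5. For Nsl1 the median was 3.89, and single genes ranged from 1.17 to 13.8. With the mean of the library in place of the local level the medians were 6.25 and 5.23, so which library was the higher depends on this scaling. Over all autosomal protein-coding genes the medians were 1.83 and 1.69. Over the 9925 genes whose promoter is rich in CpG, with an observed over expected CpG of at least 0.6, they were 2.73 and 2.66. The counts behind these levels were modest: the 62 windows held 3142 distinct Msl1 reads and 3679 distinct Nsl1 reads, with 18 to 187 and 17 to 197 reads per gene. The lower end of the interval was above the local level for 58 genes in Msl1, against 52.9% of all TSSs, and for 59 in Nsl1, against 50.7%.

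At 2 times the local level or more stood 55 of the 62 genes for Msl1, against 45.2% of all autosomal TSSs, and 54 for Nsl1, against 40.9%. At 3 times stood 42 for Msl1 (23.0% of all TSSs) and 40 for Nsl1 (23.8%). At 5 times the background was 3.42% for Msl1 and 9.89% for Nsl1, and the genes past it numbered 14 and 19. Both factors reached 2 times the local level at 49 genes, against 30% of all TSSs. Msl1 alone did so at 6 genes (15.3% of all TSSs), Nsl1 alone at 5 (10.9%), and neither at 2 (43.8%), Srsf9 and Srsf12, of which Srsf12 was chosen after its values were seen. The shares past 2, 3 and 5 times in each library, and in both at once, were thus above those over all TSSs. Against CpG-rich TSSs the gap was narrower, since 73.8% of these passed 2 times for Msl1 and 66.1% for Nsl1, and 5264 of 9925 for both. No test was made of these differences.

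**Figure D1:**
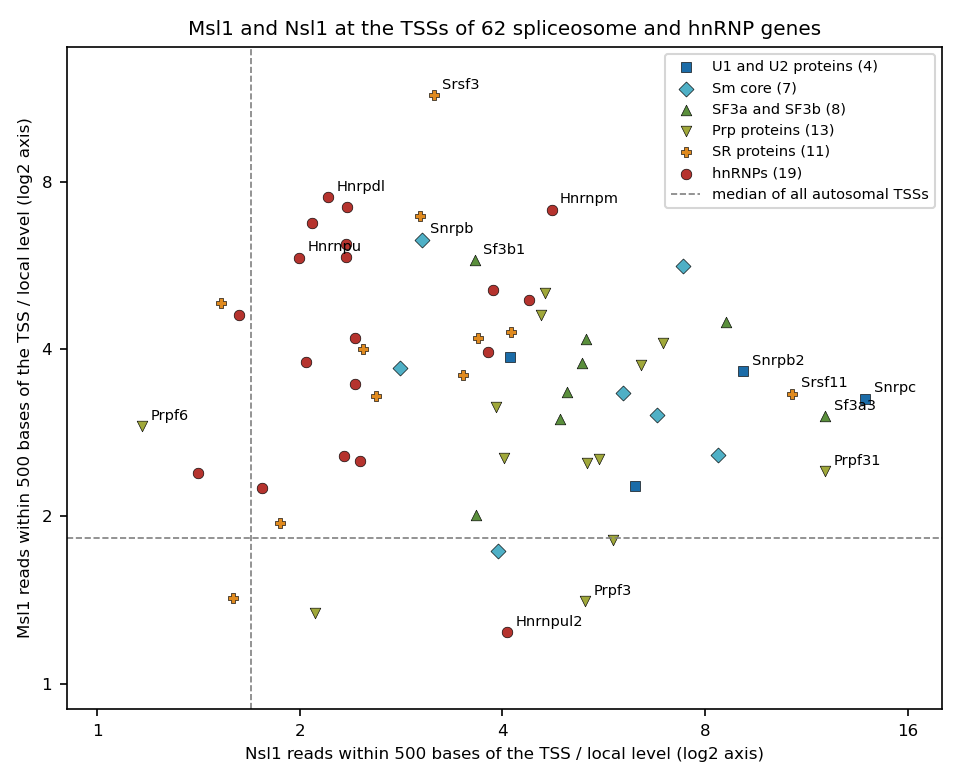
Each point is 1 of the 62 genes, with the Nsl1 TSS level on the horizontal and the Msl1 TSS level on the vertical axis, both on log2 axes; colours and marker shapes give the role groups, and dashed lines the medians over all autosomal TSSs (1.69 and 1.83). Most hnRNP genes lie to the upper left, with Nsl1 levels of 1.41 to 4.73, apart from Hnrnpul2 at an Msl1 level of 1.24, while the highest Nsl1 levels, at Snrpc, Sf3a3 and Prpf31, come with Msl1 levels between 2.42 and 3.26.

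Among the 62 genes a higher level in one library did not as a rule come with a higher level in the other. Across the 62 genes the TSS levels of the libraries had a Pearson correlation of -0.18 and a Spearman correlation of -0.14, whereas over 21233 autosomal genes the values were 0.51 and 0.63. Genes are not independent replicates, so these are descriptions. Both libraries were past 2 times the local level at 49 of the 62 genes, against 30% of all TSSs, so the comparison is between unlike ranges. No correlation was taken over CpG-rich TSSs alone. Whether these genes differ from TSSs of like level therefore cannot be read from these values. The roles of the genes lined up with where they lay in the plot of both TSS levels. The Msl1 level exceeded the Nsl1 level at 18 of 19 hnRNP genes and 9 of 11 SR protein genes, while the Nsl1 level was the higher at 4 of 4 U1 and U2 genes, 5 of 7 Sm genes, 7 of 8 SF3 genes and 10 of 13 Prp genes. Over all 21410 autosomal genes the Msl1 level was the higher at 9720 and the Nsl1 level at 11091. These counts rest on the local level, and which library is the higher depends on that scaling.

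The genes of the U1 and U2 particles had the highest Nsl1 levels, with a group median of 7.70 against 3.46 for Msl1, a value that was 1.71 with 250 bases on each side. Snrpc, which encodes the U1 protein that helps U1 pair with the 5′ splice site, held 49 Msl1 reads, 3.26 times the local level (95% interval 2.40 to 4.34), and 197 Nsl1 reads, 13.8 times (11.9 to 16.1). Its Nsl1 level was the highest of the 62 genes and stood at percentile 99.3 of all autosomal TSSs. Snrpb2, which binds a stem loop of U2, held 23 Msl1 reads, 3.65 times the local level (2.30 to 5.54), and 84 Nsl1 reads, 9.12 times (7.20 to 11.4). Snrpa1, its partner on U2, was at 2.27 for Msl1 (1.45 to 3.40) and 6.29 for Nsl1 (4.97 to 7.86). Snrpa, the U1 relative of Snrpb2, was the exception: its levels of 3.88 for Msl1 (2.94 to 5.02) and 4.11 for Nsl1 (3.17 to 5.25) overlapped.

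The Sm core, whose products form the ring on the small nuclear RNAs, had medians of 3.34 for Msl1 and 6.05 for Nsl1. With 250 bases on each side the Nsl1 median of these genes was 9.93. Snrpe was highest in Nsl1, at 8.36 (6.74 to 10.3) with 2.58 in Msl1 (1.77 to 3.65). Snrpd2 was the lowest of the group in Msl1, at 1.73 (1.07 to 2.66), and stood at 3.93 in Nsl1 (2.99 to 5.09). Snrpb went the other way, with 60 Msl1 reads at 6.30 times the local level (4.77 to 8.19) and 37 Nsl1 reads at 3.04 times (2.13 to 4.21). Snrpf had the lowest Nsl1 level of the ring, 2.82 (1.91 to 4.03), which overlapped its Msl1 level of 3.70 (2.30 to 5.67). Genes whose products sit side by side in 1 ring thus differed in which library was the higher.

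The SF3a and SF3b genes were past 2 times the local level in both libraries at 8 of 8 genes, against 30% of all TSSs and 5264 of 9925 CpG-rich ones. Their medians were 3.57 for Msl1 and 5.12 for Nsl1. Sf3a3 held 44 Msl1 reads, 3.03 times the local level (2.19 to 4.09), and 175 Nsl1 reads, 12.1 times (10.3 to 14.2). Sf3a1 was the lowest of the group in Msl1, at 2.02 (1.44 to 2.76), with 3.65 in Nsl1 (2.87 to 4.58). Sf3b1, the subunit that grips the branch point helix, was the 1 gene of the group with the higher level in Msl1, at 5.78 (4.57 to 7.23) against 3.64 in Nsl1 (2.63 to 4.92).

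Among the Prp genes the medians were 2.55 for Msl1, the lowest of the 6 groups in this window, and 5.31 for Nsl1. With 250 bases on each side the Msl1 median was 1.76, above the 1.71 of the U1 and U2 genes. The Prp Nsl1 median was 7.56 with 250 bases and 3.13 with 1000. Prpf31, which joins the U4/U6 and U5 particles, held 36 Msl1 reads, 2.42 times the local level (1.69 to 3.36), and 174 Nsl1 reads, 12.1 times (10.2 to 14.2). Prpf3, a U4/U6 protein, stood at 1.41 in Msl1 (0.869 to 2.16), an interval that includes the local level, and at 5.31 in Nsl1 (4.14 to 6.73). Prpf4b, a kinase of the spliceosome, was the highest of the group in Msl1, at 5.05 (3.72 to 6.72), with a like Nsl1 level of 4.63 (3.40 to 6.18). Prpf40b, a relative of a yeast U1 protein, was the lowest of the group in Msl1, at 1.34 (0.792 to 2.13), with 2.11 in Nsl1 (1.44 to 2.99). Prpf6, which bridges U5 and U4/U6, was at 2.91 in Msl1 (2.07 to 3.98) and had the lowest Nsl1 level of all 62 genes, 1.17 (0.677 to 1.87). Its annotated start had an observed over expected CpG of 0.0974, whereas 57 of the 62 promoters were at 0.6 or more, against 46.4% of all autosomal promoters.

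The SR protein genes had medians of 3.997 for Msl1 and 3.02 for Nsl1. Srsf3, the smallest of the classical SR proteins, held 187 Msl1 reads, 11.5 times the local level (9.79 to 13.4), and 46 Nsl1 reads, 3.16 times (2.30 to 4.24). This was the highest Msl1 level of the 62 genes, at percentile 99.9 of all autosomal TSSs. Srsf5 followed within the group at 6.95 in Msl1 (5.39 to 8.83) and 3.02 in Nsl1 (2.09 to 4.23), and Srsf6 stood at 4.84 in Msl1 (3.61 to 6.36) and 1.52 in Nsl1 (0.940 to 2.34). Srsf11, an SR-related protein, had the opposite balance, with 41 Msl1 reads at 3.33 times (2.37 to 4.54) and 120 Nsl1 reads at 10.8 times (8.85 to 13.1). Srsf9 was low in both libraries, at 1.43 (0.901 to 2.15) and 1.59 (1.04 to 2.34).

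The hnRNP genes had the highest group median in Msl1, 4.61, and the lowest in Nsl1, 2.34. Hnrpdl, a close relative of Hnrnpd, held 81 Msl1 reads, 7.52 times the local level (5.92 to 9.44), and 27 Nsl1 reads, 2.20 times (1.45 to 3.22). Hnrpll, known for its part in CD45 splicing, stood at 7.21 in Msl1 (5.58 to 9.19) and 2.35 in Nsl1 (1.53 to 3.46), and Hnrnpm at 7.13 (5.75 to 8.76) and 4.73 (3.54 to 6.21), the highest Nsl1 level of the group. At the most upstream annotated start of Hnrnpm, 1472 bases away, the levels were 1.16 and 1.12. None of the 19 genes reached 5 times the local level in Nsl1 (9.89% of all TSSs), and 8 did in Msl1 (3.42%). Hnrnpd, also called AUF1 for its binding of AU-rich elements, was at 6.75 in Msl1 (5.23 to 8.59) and 2.08 in Nsl1 (1.31 to 3.14). Hnrnpu, a large protein that also binds chromatin, was at 5.85 (4.55 to 7.41) and 1.99 (1.28 to 2.96). Hnrnpa1, the prototype repressor of splice sites, was at 4.61 (3.56 to 5.87) and 1.63 (1.03 to 2.45), and its relative Hnrnpa3 at 2.39 (1.65 to 3.36) and 1.41 (0.820 to 2.27). Hnrnpul2 was the 1 gene of the group with the higher level in Nsl1, 4.07 (3.15 to 5.18), and its Msl1 level of 1.24 (0.800 to 1.84) was the lowest of the 62 genes.

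The libraries were also set against each other directly. For each TSS the log2 ratio of Msl1 to Nsl1 reads within 500 bases, each scaled to the distinct reads of its library, was taken, and the median over the 16982 autosomal TSSs with 20 reads or more in total was 0.06. Relative to that median the hnRNP genes had a group median of 1.07, with 18 of 19 above 0, and the SR protein genes 0.29, with 10 of 11 above 0. With 250 bases on each side these medians were 1.31 and 0.66, with 15 of 19 and 7 of 11 genes above 0, and with 1000 bases 0.89 and 0.80, with 18 and 9. The U1 and U2 genes had a median of -1.54, with 3 of 4 below 0, and the Sm genes -0.82, with 6 of 7 below 0. With 1000 bases on each side these medians were -0.67, with 3 of 4 below 0, and -0.28, with 4 of 7. The SF3 genes were at -0.21 and the Prp genes at -0.52, and these medians turned to 0.08 and 0.09 in the wider window.

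Relative to the median of all TSSs, 16 of the 62 genes were shifted 2-fold or more toward Msl1, against 12.6% of the 16982 TSSs with 20 reads or more, over which the other shares of this paragraph are also taken, and 11 of these 16 were hnRNP genes and 3 SR protein genes. Toward Nsl1 13 genes were shifted by as much, against 13.3%, among them 3 of the U1 and U2 genes, 3 Sm genes and 4 Prp genes. With 1000 bases on each side of the TSS the genes shifted to Nsl1 fell to 3, while those shifted to Msl1 numbered 15. The share of all TSSs was not taken in that window, so these counts cannot be set against a background. The whole interval lay above the median for 19 genes (15.9%), 12 of them hnRNP genes. It lay below for 17 genes (17.0%), of which 1, Hnrnpul2, was an hnRNP gene. Among the 9703 CpG-rich TSSs with 20 reads or more, it lay above for 2139 and below for 2141. More reads make an interval narrower, and the 62 genes had medians of 49.5 Msl1 and 53 Nsl1 reads. Over all autosomal genes the medians were 19 and 20. Taken over all 62 genes the shifts came close to cancelling, with a median of 0.12. The log2 ratio itself, not centred on the median, was highest at Srsf3, 2.38 (1.90 to 2.87), and then at Hnrnpd, 1.98 (1.28 to 2.73). It was lowest at Prpf31, -1.92 (-2.48 to -1.40), and then at Snrpc, -1.65 (-2.14 to -1.20).

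**Figure D2:**
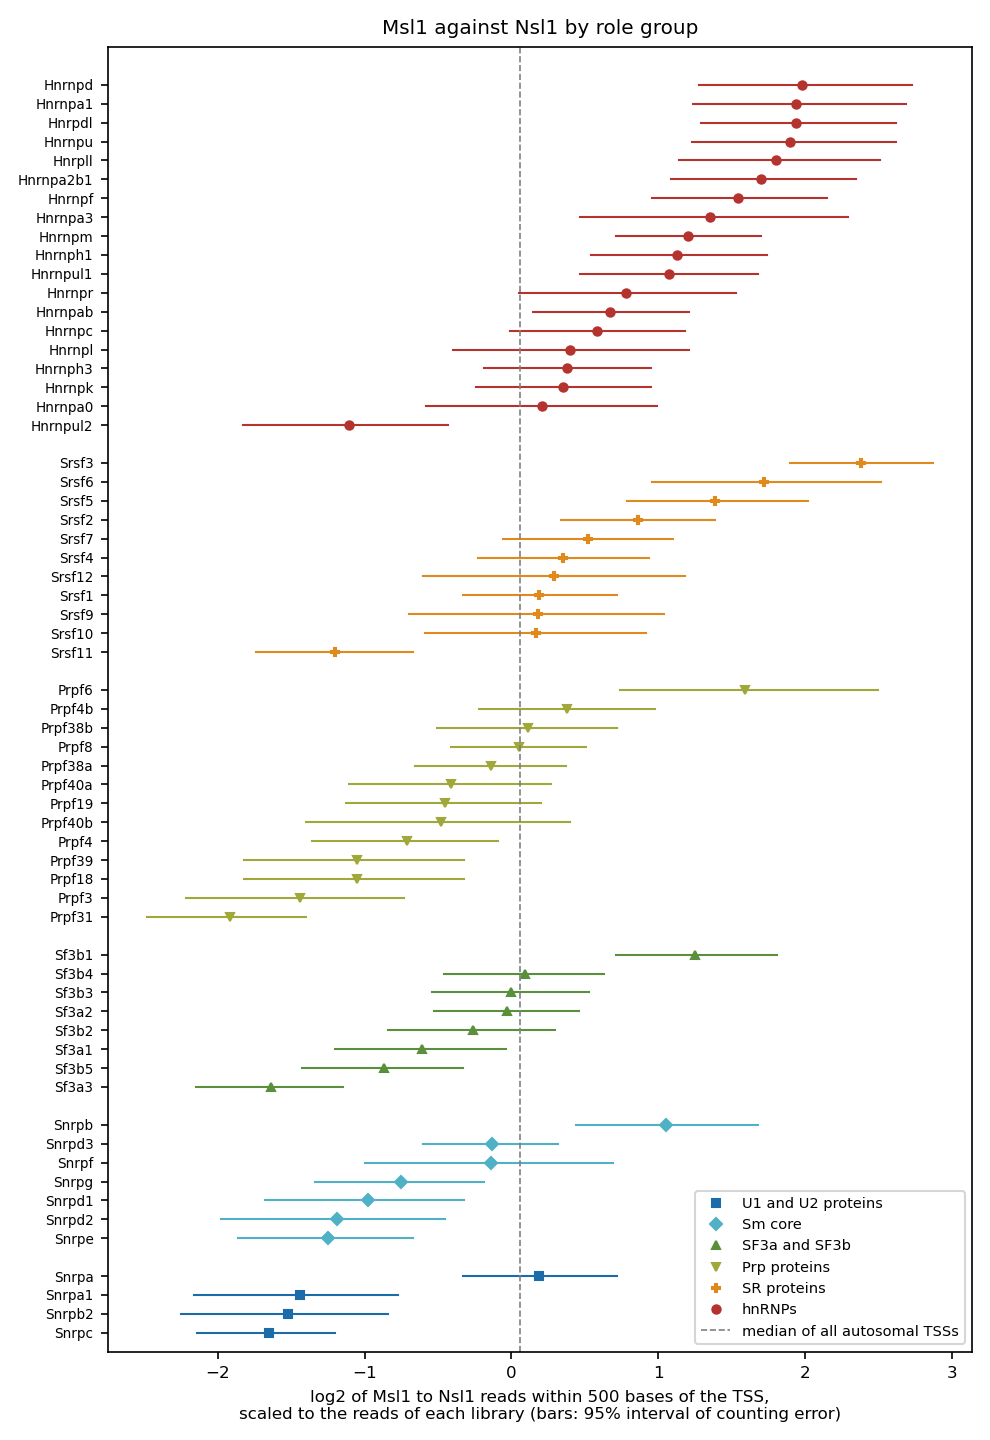
Each row is 1 gene, the point its log2 ratio of Msl1 to Nsl1 reads within 500 bases of the TSS scaled to library depth, the bar the exact 95% interval of counting error, and the dashed line the median of all autosomal TSSs (0.06). Genes are grouped by role and sorted within groups; 18 of the 19 hnRNP points lie to the right of the line and 3 of the 4 U1 and U2 points lie far to its left.

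Base composition of the promoter moved with this balance. From 250 bases before to 50 bases after the TSS the median C+G share was 65.0% in the hnRNP genes and 64.3% in the SR genes, against 54.7% in the Sm genes and 51.7% in the U1 and U2 genes. The log2 ratio and the C+G share had a Pearson correlation of 0.41 over the 62 genes and of 0.25 over 20606 autosomal genes, and the libraries came from different kits, whose part in this was not tested. When each gene was instead set against the median of TSSs in the same 5-point bin of C+G share, a comparison chosen after the data were seen, the group medians were 0.94 for hnRNP genes, with 16 of 19 above 0, and 0.47 for SR genes, with 8 of 11. The Sm genes were then at -0.65, the U1 and U2 genes at -1.33, the SF3 genes at -0.37 and the Prp genes at -0.60. Hnrnpa1, with a log2 ratio 2.12 above its bin, had a C+G share of 52.0%, while Snrpc, at -1.59 relative to its bin, had 43.7%. The Hnrnpa1 values rest on an annotated start that may be misplaced.

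**Figure D3:**
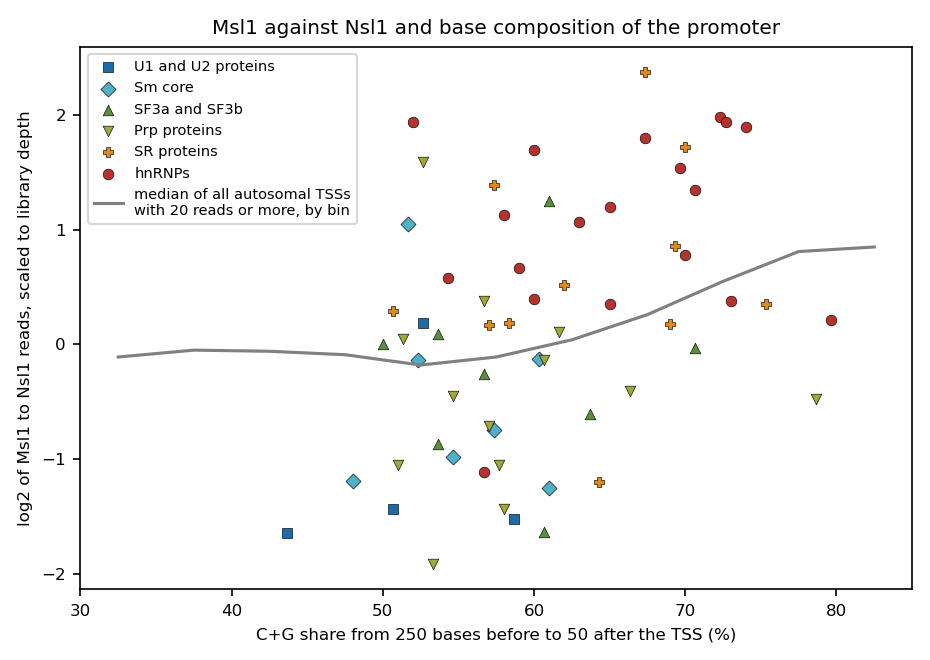
The C+G share of the promoter in percent is on the horizontal axis and the log2 ratio of Msl1 to Nsl1 reads scaled to library depth on the vertical axis, with 1 point per gene coloured by role; the grey line is the median of all autosomal TSSs with 20 reads or more in bins of 5 percentage points. hnRNP points stand above the line at low and at high C+G shares, 16 of 19 in all.

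The factors also differed in where around the TSS their reads lay. Summed over the 62 genes in bins of 100 bases, Msl1 was highest 200 to 300 bases downstream of the TSS, at 6.70 times the local level (6.16 to 7.29), and stayed above the midpoint between that maximum and its upstream level from 100 to 1200 bases. Over all autosomal genes the Msl1 maximum lay in the same bin, at 3.17, and the stretch above the midpoint ended at 800 bases. Nsl1 was highest from 0 to 100 bases, at 7.86 times (7.28 to 8.48), and was above its midpoint only from -200 to 200 bases. The upstream side of the TSS told the libraries apart as well: in the 500 bases before it Msl1 was at 2.21 (2.07 to 2.36) and Nsl1 at 3.88 (3.69 to 4.07). Far downstream, from 2000 to 3000 bases, Msl1 was still at 2.05 (1.96 to 2.16) and from 3000 to 5000 bases at 1.57 (1.51 to 1.64), while Nsl1 was at 0.962 (0.898 to 1.03) and 0.943 (0.897 to 0.990).

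The heights of these maxima differed between role groups. The Nsl1 maximum reached 21.6 over the U1 and U2 genes (17.8 to 25.9), 12.9 over the Sm genes (10.6 to 15.5) and 12.3 over the SF3 genes (10.3 to 14.5), but 4.001 over the hnRNP genes (3.28 to 4.84). The Msl1 maxima lay closer to each other: 8.70 over the SR genes (7.27 to 10.3), 8.45 over the U1 and U2 genes (6.04 to 11.5), 7.10 over the Sm genes (5.30 to 9.31) and 5.87 over the SF3 genes (4.58 to 7.42), each from 200 to 300 bases downstream, and 7.21 over the hnRNP genes (6.22 to 8.31), from 400 to 500 bases. For the Prp genes the Msl1 maximum was 6.51 (5.35 to 7.85) and lay from 300 to 400 bases.

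**Figure D4:**
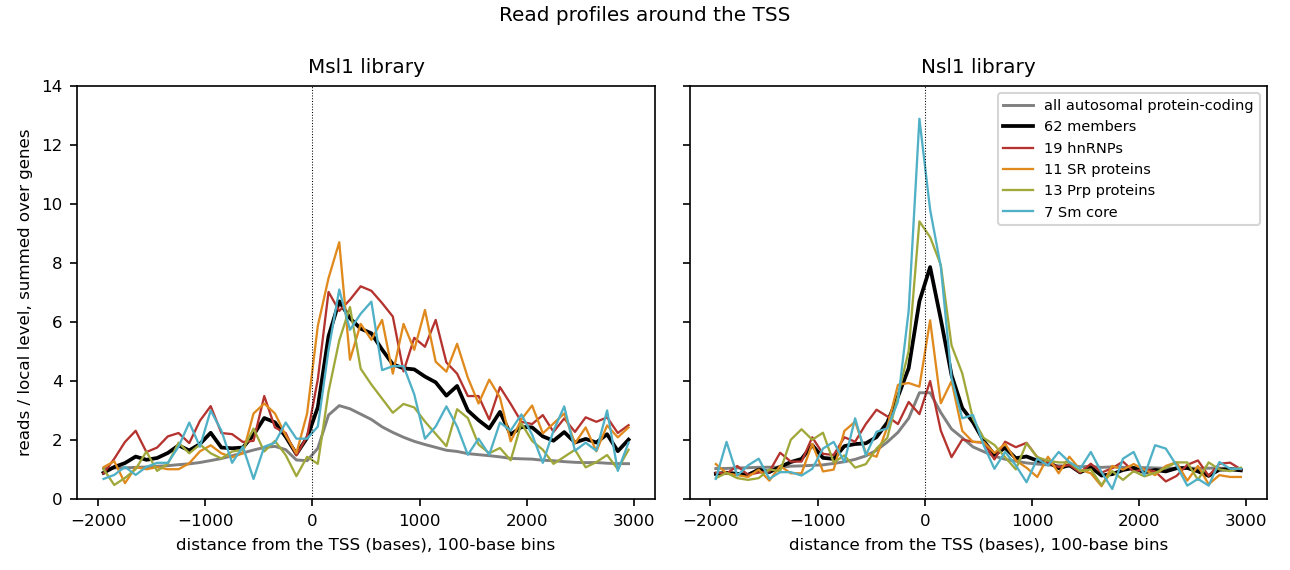
Reads summed over genes and divided by the local level are plotted against the distance from the TSS in 100-base bins, Msl1 on the left and Nsl1 on the right, for the 62 genes (black), all autosomal protein-coding genes (grey) and 4 role groups (colours). The black Msl1 line peaks at 6.70 downstream of the TSS and declines over more than 2000 bases, and the black Nsl1 line peaks at 7.86 at the TSS and is back near 1 beyond 1000 bases.

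Summed over the 62 genes, Msl1 declined from 4.81 times the local level at 500 to 1000 bases downstream to 2.53 at 1500 to 2000 bases. Averaged from 500 to 2000 bases, Msl1 reads were nearly as dense as within 500 bases on either side of the TSS. Nsl1 reads were not. The downstream ratio, reads per kb in that stretch over reads per kb within 500 bases of the TSS, came to 0.959 in the Msl1 library (0.916 to 1.004) and to 0.285 in the Nsl1 library (0.269 to 0.303) when reads were summed over the 62 genes. The same sums over all autosomal genes gave 0.837 and 0.482, and over the CpG-rich promoters 0.793 and 0.365. Msl1 had the higher downstream ratio at 59 of 62 genes, against 65.8% of all TSSs and 7575 of the 9925 CpG-rich ones. The exceptions were Prpf6, whose annotated start may be misplaced, Srsf12 and Hnrnpd. Set against the local level, the downstream stretch had a median of 3.58 in Msl1, against 1.5 over all genes, and of 1.16 in Nsl1, against 1.15. Over the CpG-rich genes these medians were 2.03 and 1.19. At 2 times the local level or more stood 53 of 62 downstream stretches for Msl1 (32.1% of all) and 5 for Nsl1 (5.24%). Of the 9925 CpG-rich genes 5099 and 460 did so, and of the 71 other splicing genes described below 51 and 4. The 53 held 19 of 19 hnRNP genes, 10 of 11 SR genes, 8 of 8 SF3 genes, 6 of 7 Sm genes, 3 of 4 U1 and U2 genes and 7 of 13 Prp genes. Group medians of the downstream stretch over the local level were 4.25 for hnRNP genes, 5.21 for SR, 2.81 for SF3, 3.26 for Sm, 3.39 for U1 and U2 and 2.16 for Prp genes.

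Among genes with 30 Msl1 reads or more at the TSS the downstream ratio was highest at Hnrnpa3, 1.98 (1.33 to 3.02), followed by Hnrnpab, 1.74 (1.31 to 2.32), and Srsf1, 1.65 (1.21 to 2.26). With fewer reads, 25 at the TSS, Hnrnpul2 had the highest ratio of the 62 genes, 3.15 (2.03 to 5.06). Srsf9, with 23 reads, was at 2.15 (1.33 to 3.59). A ratio above 1 was found for 24 of the 62 genes, a share near the 37.6% of all TSSs. Hnrnpa3 and Hnrnpab encode RNA-binding proteins of the A/B type, and Srsf1 is the founding SR protein. At these genes the Nsl1 downstream ratios were 0.707 (0.344 to 1.46), 0.501 (0.327 to 0.760) and 0.329 (0.210 to 0.506). The Msl1 stretch of Hnrnpa2b1, a gene picked after its values were seen, was 9.24 times the local level, while its Nsl1 stretch was at 0.958. Srsf3, with the highest Msl1 level at the TSS, had a downstream ratio of 0.460 (0.365 to 0.579), so its Msl1 reads were denser at the TSS than beyond it.

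The Nsl1 downstream ratio divides by the reads at the TSS, so a high TSS level by itself lowers it. At Sf3a3, Snrpc and Prpf31, the genes with the highest Nsl1 TSS levels, the downstream stretches were at 0.783, 0.938 and 1.11 times the local level, below the median of 1.16 over the 62 genes. Among genes with 30 Nsl1 reads or more at the TSS the ratio was highest at Hnrnph1, 0.992 (0.650 to 1.53), Hnrnpf, 0.760 (0.474 to 1.22), and Hnrnpul2, 0.619 (0.434 to 0.883). Hnrnph1 and Hnrnpf bind runs of guanine in RNA. The reads of Hnrnpa1 are a limit here, because 61.9% of the 36-base sequences in its downstream stretch occur once in the genome, and 69.2% in that of Sf3b4; the other genes ranged higher.

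**Figure D5:**
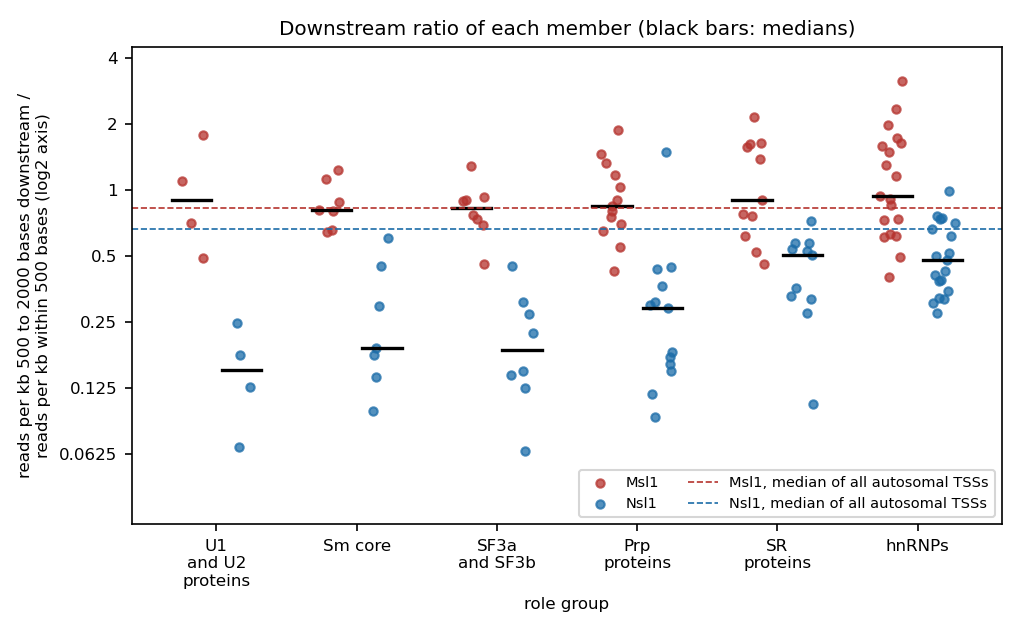
Each point is the downstream ratio of 1 gene on a log2 axis, Msl1 in red and Nsl1 in blue, by role group, with black bars at the group medians and dashed lines at the medians of all autosomal TSSs (0.834 and 0.667). Nsl1 medians run from 0.152 in the U1 and U2 genes to 0.507 in the SR genes, while Msl1 medians stay between 0.816 and 0.944.

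Many of these genes share a start region with another gene. For 22 of 62 genes (35.5%) the TSS of another protein-coding gene lay on the opposite strand within 1000 bases, against 10.9% of all autosomal genes. The share was 19.4% among genes with CpG-rich promoters and 22.5% among the other splicing genes described below. Srsf11 starts 23 bases from Lrrc40, Prpf31 starts 56 bases from Tfpt, Hnrnpul2 starts 68 bases from Ttc9c, and Hnrnpa1 starts 698 bases from Cbx5. Reads at such a start cannot be assigned to either gene. The median TSS levels were 3.91 for Msl1 and 4.09 for Nsl1 at the 22 of the 62 genes with such a neighbour, and 3.52 and 3.66 at the other 40, and the downstream ratios were 0.876 and 0.320 against 0.885 and 0.326.

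The promoters were mostly CpG-rich, so motif shares are given beside those of CpG-rich promoters as well as of all promoters. Searched on both strands from 250 bases before to 50 after the TSS, CCGGAAG was found at 19 of 62 genes (30.7%), against 10.98% of all autosomal promoters and 19.4% of CpG-rich ones. CCAAT was found at 35 genes (56.5%, against 37.5% and 37.0%). GGGCGG was found at 39 (62.9%), above the 44.2% of all promoters and below the 73.2% of CpG-rich ones. TATAAA was found at 5 (8.07%), Srsf3 among them, below the 13.6% of all promoters and above the 5.90% of CpG-rich ones. CACGTG was found at 8 genes (12.9%, against 7.69% and 11.1%), TCTCGCGA at 4 (6.45%, against 1.28% and 2.64%), AAGATGGCG at 2 (3.23%, against 1.85% and 3.47%) and GCGCATGC at 1 (1.61%, against 3.34% and 6.23%). The median Nsl1 TSS level was 4.63 at the 19 genes with CCGGAAG and 3.64 at the others, and the Msl1 medians were 3.34 and 3.796. Over all promoters the Nsl1 medians were 4.11 with the motif and 1.57 without it, and the Msl1 medians 2.80 and 1.71. With GGGCGG the Nsl1 median of the 62 genes was 3.49 and without it 4.73, and the Msl1 medians were 3.997 and 3.15. Over all promoters both libraries were higher with GGGCGG, at 2.23 against 1.36 for Nsl1 and 2.51 against 1.33 for Msl1.

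Other genes of splicing, from a list of 72 symbols of which 71 were found on the autosomes, gave medians of 3.12 for Msl1 and 3.77 for Nsl1. At 2 times the local level or more stood 62 and 64 of the 71, against 45.2% and 40.9% of all TSSs. Of CpG-rich TSSs 73.8% and 66.1% did so, and 67 of the 71 promoters were CpG-rich. The highest Nsl1 levels belonged to the U5 helicase Snrnp200, at 29.3 (26.1 to 32.8), the helicase Dhx38, at 18.5 (16.3 to 21.1), and the tri-snRNP protein Snrnp27, at 11.6 (9.76 to 13.7). Their Msl1 levels were 4.72, 4.47 and 4.34. The highest Msl1 levels belonged to Clk1, a kinase of SR proteins, at 7.68 (6.25 to 9.35), and to the RNA-binding proteins Rbm39, at 6.92 (5.49 to 8.63), and Khdrbs1, at 6.69 (5.07 to 8.68), with Nsl1 levels of 2.21, 4.403 and 4.17. Split after the values were seen, the 42 listed genes of the particles, catalytic proteins and the exon junction complex had a median log2 ratio of -0.46 relative to all TSSs, and the 29 RNA-binding regulators and SR kinases one of 0.41.

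Other gene sets are given for comparison. The 136 genes with ribosomal protein symbols (Rpl and Rps) had medians of 2.03 for Msl1 and 2.40 for Nsl1, and the 41 proteasome genes 3.002 and 4.78. The Rpl and Rps genes had a median length of 1993.5 bases, against 15526.5 over all autosomal genes, and 77 of their 136 promoters were CpG-rich. Pseudogene-like copies were not separated out of this set. Its medians therefore cannot be read as those of working ribosomal protein genes. In the Rpl and Rps set 58 genes were below 2 times the local level in both libraries, as were 43.8% of all TSSs. In that set 87 genes had 20 reads or more in total, against 16982 of all 21410. The quartiles of its Msl1 level were 0.595 and 3.5. No test was made of these differences.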

How the data were processed

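The data are 1 ChIP-seq library for each of Msl1 and Nsl1, from wild type mESCs. Per the labels, the authors' processing used CASAVA 1.8.2 and Bowtie 0.12.7 on mm9, and their methods state that unique reads were used. The deposited files hold 1 line per aligned read with its position and strand, and an alignment score that the authors left at 255 throughout, which was not used. Repeated positions had not been removed: the share of nuclear reads that fell on an occupied position and strand was 18.3% for Msl1 and 4.56% for Nsl1, and 1 read was kept for each.

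Each read was placed at the centre of its fragment, whose length by strand cross-correlation was 217 bases for Msl1 and 133 for Nsl1. Counting used Python 3.11.15 with numba 0.67.0, numpy 2.4.6, scipy 1.17.1 and pandas 2.3.3. Figures were drawn with matplotlib 3.10.9. Genes came from a GENCODE release for mm9 that is not the annotation named in the methods of the study, and a gene's TSS is the start shared by most of its protein-coding transcripts. Sequences and coordinates are from the mm9 genome, counted from 1. Intervals are exact at 95%. The counting was tested on simulated data. An Input that the authors took from other work played no part here.

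The genes, groups, lists and motifs were chosen with earlier results of these data known. Genes named are, in each role group, the highest and lowest TSS level in each library, and over all 62 genes the 5 highest and 5 lowest levels and log2 ratios and the 3 highest downstream ratios among genes with 30 reads or more at the TSS, besides the 3 highest other splicing genes in each library. Alternatives covered repeated reads, windows, the local level, fragment length, the TSS, nearby TSSs, unique sequence and the fold.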

Additional observations from a re-analysis of the deposited data

How the results depend on the processing

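No paired analysis was possible because each antibody had 1 library. A median over genes was taken as moved when it left the 95% order-statistic interval of the main median, and a count when it changed by more than 1.5 times. For the U1 and U2, Sm and SF3 genes that interval was the full range of the group. For the U1 and U2 genes even this range falls short of 95%. A median of these groups could thus rarely count as moved. The SF3 log2 ratio, -0.21 in the main count and 0.08 with 1000 bases, did not. Several alternatives moved none of the medians and counts over the genes and role groups beyond these limits. These were keeping all reads, a fragment length of 200 bases in both libraries, a local level from 10 kb to 100 kb and the most upstream start. Another was dividing reads by the number of positions with a unique 36-base sequence, which was not done for the log2 ratios. The higher Msl1 downstream ratio held at 56 to 60 of 62 genes under the alternatives that kept all of them. With the mean of the library as local level the median TSS levels were 6.25 (Msl1) and 5.23 (Nsl1), the Msl1 medians 4.16 (Prp), 6.25 (SF3), 4.61 (U1 and U2) and 8.45 (hnRNP), and the Nsl1 median of SR genes 4.54. With 250 bases on each side the Nsl1 median was 4.95 and the median over genes of its downstream ratio 0.273 (0.322 in the main count), the Prp medians were 1.76 (Msl1) and 7.56 (Nsl1), the Sm Nsl1 median 9.93, the U1 and U2 Msl1 median 1.71 and their log2 ratio -2.34. With 1000 bases, a window that overlaps the downstream stretch, the Nsl1 median was 2.68, the median of its downstream ratio 0.474, the log2 ratio of the 62 genes 0.40, the genes shifted to Nsl1 3, the Nsl1 medians 3.13 (Prp), 3.41 (SF3) and 1.95 (hnRNP), and the Prp log2 ratio 0.09. A downstream stretch from 1000 bases gave a median Msl1 downstream ratio of 0.730 (0.885 in the main count). At 3-fold in place of 2-fold, 8 genes were shifted to Msl1 and 3 to Nsl1. Shares of all TSSs shifted between the libraries were not taken at 3-fold or with 1000 bases, so these counts cannot be set against a background. Without genes with another TSS within 2000 bases 40 genes remained, of which 35 (Msl1) and 34 (Nsl1) passed 2 times the local level and 10 were shifted to Msl1. Hnrnpf, measured at its most upstream start, 6442 bases away, had an Msl1 level of 0.799 and a log2 ratio of -0.92. Hnrnpm, at a start 1472 bases away, had levels of 1.16 (Msl1) and 1.12 (Nsl1), and the Nsl1 level of Hnrnpk, at a start 879 bases away, was 2.37. The cause was not tested for any of these moves. Depth limits single genes, whose windows hold 17 to 197 reads.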
